A study of Fragaria hybrid cultivar with 9 samples.

Results

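The last visible step of petal coloring in a pink-flowered strawberry was examined at the level of miRNAs, by setting the big bud stage (PF_D) against the coloration beginning stage (PF_Z). These stages hold 6 of the 9 small RNA libraries of the series, 3 of PF_D and 3 of PF_Z, and the remaining 3 come from the young bud stage (PF_L), before pigment is visible. All petals came from cultivar Sijihong, an intergeneric hybrid of Fragaria and Potentilla grown in the open, with no treatment and no genotype contrast. The stages therefore differ in age as well as in color, and those differences cannot be told apart. The labels describe the 3 libraries of a stage as biological repetitions, and whether petals of several plants were pooled is not given in the sources used here. The deposited table gives a normalized read count for each miRNA name and library. Of its 1876 lines, 173 repeat another line in full and were left out, and the other 1703 names were reduced to 1660 distinct sequences of 18 to 25 nucleotides (nt), each counted once. Of these, 696 were matched to miRBase by the authors (known miRNAs) and 964 were predicted by them.

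The distinct sequences summed to 1226320 to 1290631 normalized reads per PF_D library, against 789054 to 1199249 in PF_Z libraries. A single read was worth 1.07 to 1.27 normalized reads in PF_D and 1.05 to 1.09 in PF_Z, and the reads carry no molecular identifiers. The study's read statistics, which are not given here, also differed by stage in the share of reads removed before annotation and in the share of valid reads that the listed miRNAs make up. The listed reads were mostly 21 nt long, with shares of 77.6% to 80.2% in PF_D and 73.9% to 78.8% in PF_Z. Petal tissue has no defining list of miRNAs here, but the family miR2275, which triggers phased small RNAs in anthers, summed to 13.5 to 18.1 normalized reads in PF_D libraries and 6.52 to 24.1 in PF_Z libraries. Families whose entries resemble tRNA or rRNA pieces summed to 1115 to 1374 in PF_D and 1068 to 1993 in PF_Z, and none of their 47 tested sequences was called. The part of these measures in the results was not tested.

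A plant miRNA is cut from a hairpin precursor as a duplex of 2 facing strands. An Argonaute protein usually keeps the guide strand, which pairs with target mRNAs and leads to their cleavage or to less translation, while the other strand is mostly degraded. Several conserved families act on transcription factors and hormone receptors that shape floral organs: miR393 on the TIR1/AFB auxin receptors, miR160 and miR167 on auxin response factors, miR390 on the TAS3 transcript that yields further regulators of auxin response factors, miR166 on class III HD-ZIP factors, miR396 on growth-regulating factors, miR171 on GRAS factors, miR172 on AP2-like factors, miR169 on NF-YA subunits, and miR159, miR828 and miR858 on MYB factors. These roles come mainly from Arabidopsis and other model plants, and no target was measured in these libraries.

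The sequences below are those that the main late changes are described from, with the strands they are set against. They are written 5′ to 3′ in DNA letters as in the deposited table, with the seed (bases 2 to 8, used here only to compare sequences) in capitals. The prefix of a name is the species of the miRBase entry that was matched (mdm for apple, ppe for peach, csi for sweet orange, osa for rice, bdi for Brachypodium), PC marks a predicted sequence, and the endings state how the petal sequence differs from the entry in length or bases. The first set shows the miR393, miR390 and miR160 sequences, with both strands of a family together.
mdm-miR393a_1ss22TC: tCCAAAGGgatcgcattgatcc
mdm-miR393g: aTCATGCTatccctttggatt
mdm-miR393d_L-1R+1_1ss20CA: tCATGCGAtcccttcggaagt
mdm-miR390a: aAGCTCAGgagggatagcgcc
csi-miR390a-3p_2ss15AG21AC: cGCTATCCatcctgggtttcc
csi-miR160a-3p: gCGTATGAggagccatgcata
mdm-miR160a: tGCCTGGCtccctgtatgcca

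The second set shows growth and phase change families in which one strand changed and the facing strand did not pass the test, and the miR171 sequences that moved in opposite directions.
csi-miR166c-5p_L-1R+1_1ss21GA: gGAATGTTgtctggttcgaaa
mdm-MIR166e-p5_1ss18GA: aATGTTGTctggttcgaaatc
mdm-miR166a: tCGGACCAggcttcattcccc
mdm-MIR396g-p3_1ss5AG: gTTCGAGAaagctgtgaaaaa
mdm-miR396a_1ss20AT: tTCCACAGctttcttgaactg
ppe-miR172a-5p_1ss21GA: gTAGCATCatcaagattcaca
mdm-miR172a_R+1: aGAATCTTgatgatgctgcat
mdm-miR171i_1ss1TC: cGAGCCGAaccaatatcactc
osa-miR171c-5p_1ss1GA: aGATATTGgtgcggttcaatc
mdm-miR171j: tTGAGCCGcgccaatatcact

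The third set shows miR169 sequences with different seeds that rose together, a pair of predicted sequences that face each other, a predicted sequence that differs from a named miR169 entry at 1 base, and the sequence with the clearest late fall against its early course.
mdm-miR169k_L+1R-1_1ss2TG: tGAGCCAAggatgacttgcct
ppe-miR169f_R-2: tAGCCAAGgatgacttgcct
csi-MIR169i-p3_2: gGCAGTCAccttggctaac
csi-MIR169i-p3_1: cAGTCACCttggctaacttga
bdi-MIR169c-p3_2ss14GC20AT: gCAGGTTGtccttcgctactc
PC-3p-15391_235: gCAGGTTGtccttcgctagtc
PC-3p-5481_553: tCAGAGCAtccacaacctctac
PC-5p-46233_97: aGAGTTGTggatgctatgaat
ppe-miR5225-5p: tCTGTCGTaggagagatggcgc

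Of 1511 distinct sequences with a value above 0 in at least 3 of the 9 libraries, 47 were called (3.11%), of which 35 were higher in PF_D than in PF_Z (2.32%) and 12 were lower (0.794%), at a Benjamini-Hochberg adjusted p under 0.05 in limma on log2(value + 1). The called changes ran on the log2 scale from +1.16 to +4.58 among the rises and from −1.36 to −2.60 among the falls, and low values make such a change smaller than the ratio of means. At an unadjusted p under 0.05, 288 sequences passed. Of 139 family totals, 10 were called (7.19%), 7 higher in PF_D (5.04%) and 3 lower (2.16%). The PF_D and PF_Z libraries did not overlap for any of the 47, whereas 19.9% of all tested sequences had no overlap. Known miRNAs gave 29 rises and 7 falls among 607 tested sequences, and predicted ones gave 6 rises and 5 falls among 904. The balance of directions depended on how libraries were put on one scale: with library totals set equal, 24 sequences were higher and 30 lower, since the deposited values sum to more in PF_D. That scaling moved the median change of sequences with a mean of at least 5 to −0.38, from −0.01 with the deposited values. Of the 47 calls, 35 held under each of 3 other scalings (24 rises and 11 falls), and no sign turned. The 12 largest rises and all 6 falls with at least 50 normalized reads at the higher stage, which are named below with their values, kept their calls under each of these scalings and without any 1 of the 9 libraries.

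**Figure D1:**
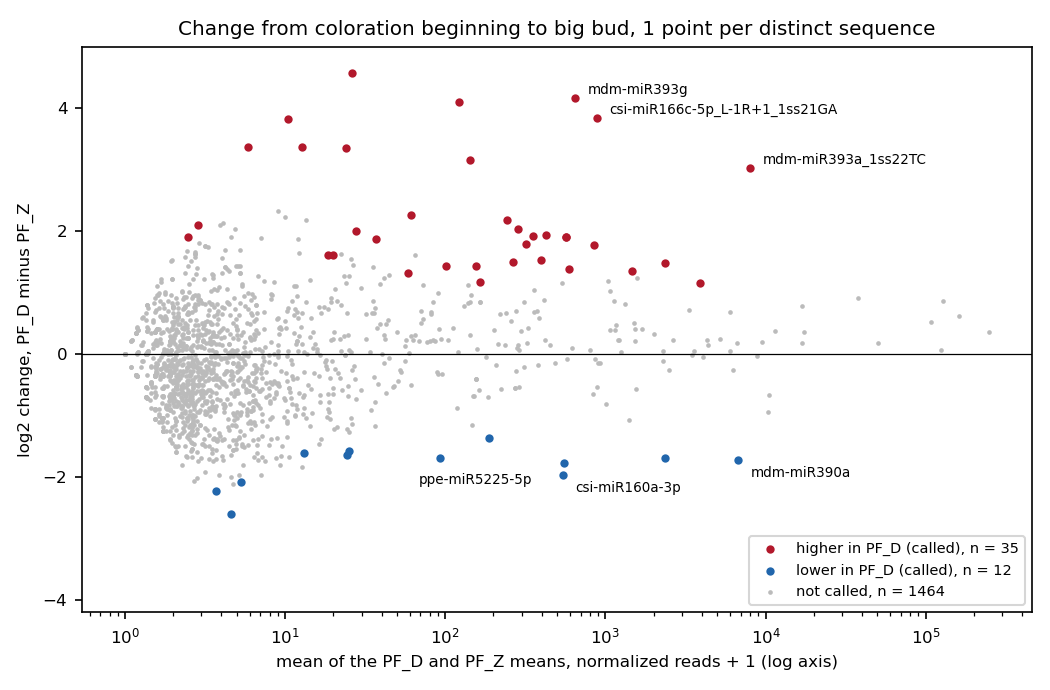
Log2 change from PF_Z to PF_D (vertical axis, PF_D minus PF_Z) against the mean level of each of the 1511 tested sequences (horizontal log axis, normalized reads + 1), with the 35 rises in red and the 12 falls in blue. The miR393 sequences and csi-miR166c-5p_L-1R+1_1ss21GA lie far above the bulk at levels where most sequences stay near 0, and csi-miR160a-3p, ppe-miR5225-5p and mdm-miR390a lie below it.

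PF_D1 was the lowest PF_D library for 29 of the 35 rises. With ties counted for it, PF_D1 was the lowest for 670 of the 1511 tested sequences and for 194 of the 501 with a mean of at least 5. Without PF_D1, 49 sequences were higher and 17 lower. Without PF_D3, 19 were higher and 10 lower, and without PF_Z2, 29 were higher and 7 lower, so the counts rest in part on single libraries. Of the 47 calls, 25 held without any 1 of the 9 libraries (19 rises and 6 falls). Each of the others was lost without PF_D3, some also without other libraries, except mdm-MIR171p-p5_1ss14CT, lost without PF_D2, and PC-5p-1083450_7, lost without several libraries but not without PF_D3. In the plot of named sequences by library, the separate PF_D1 point of the miR393 and csi-MIR169i sequences can be seen.

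**Figure D2:**
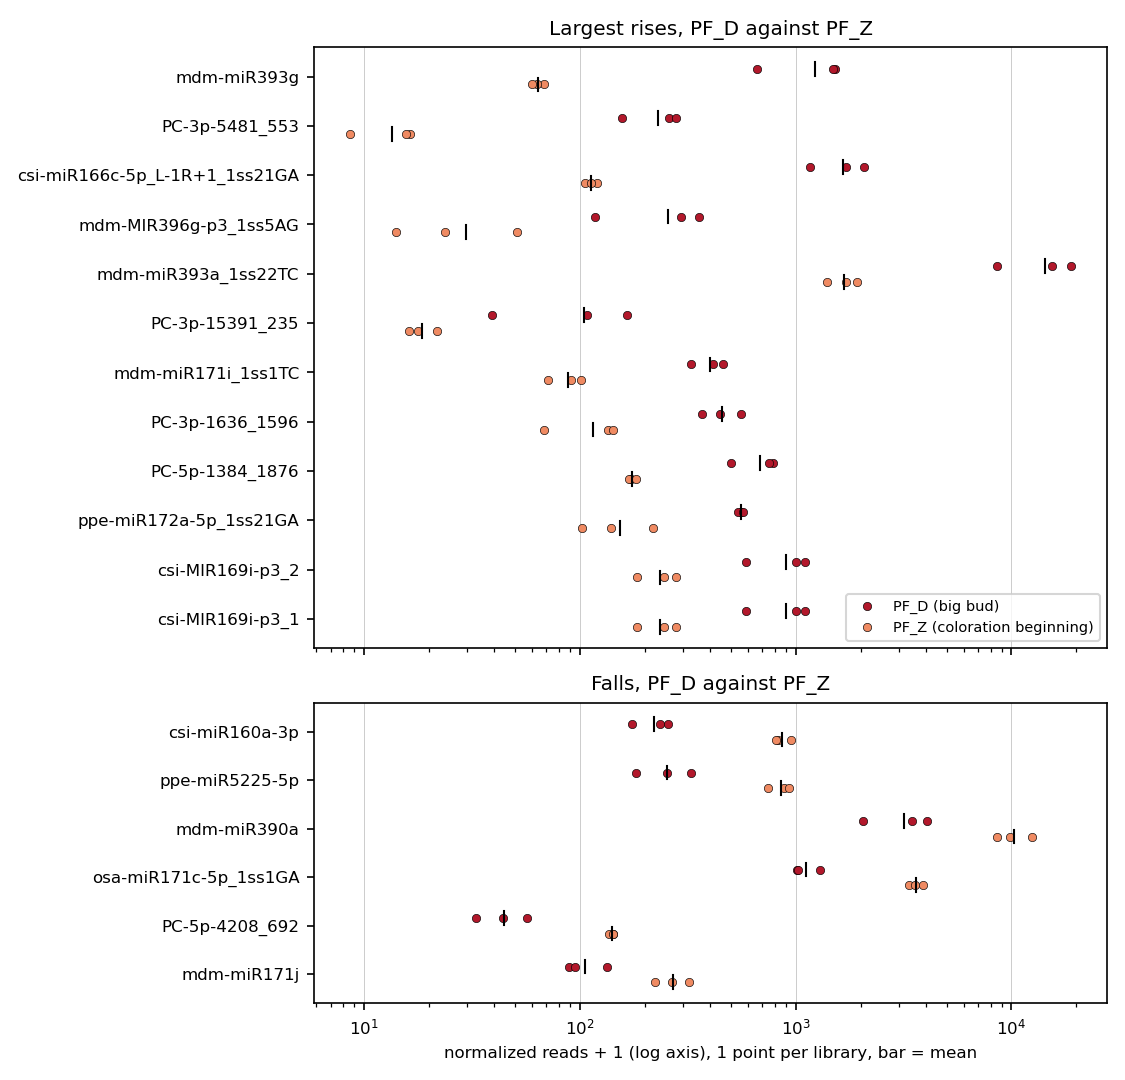
Normalized reads + 1 (log axis) of the 12 largest rises and the 6 falls with at least 50 normalized reads at the higher stage, 1 point per library and a bar at the mean (n = 3 per stage), with PF_D in dark red and PF_Z in orange. The PF_D and PF_Z points of a sequence do not overlap, which was a condition for being named.

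The largest rise among the 139 family totals was in the auxin signaling list, where miR393 rose and miR390 fell. The miR393 total was 9260, 17018 and 20474 normalized reads in PF_D1 to PF_D3, against 1791, 2005 and 1477 in PF_Z1 to PF_Z3. All 3 PF_D libraries stood far above all 3 PF_Z libraries, with PF_D1 the lowest of them. The log2 change of the total was 3.08 ± 0.29 (SE, adjusted p = 2.89e-05), and the call held under each scaling and without any 1 of the 9 libraries. Most of the total was mdm-miR393a_1ss22TC, which averaged 14279 ± 5248 in PF_D and 1680 ± 263 in PF_Z (SD, n = 3 each), a ratio of means of 8.50 (adjusted p = 1.64e-06). It carries the conserved miR393 guide sequence, and it made up 91.7% ± 0.980 of the family in PF_D and 95.5% ± 0.561 in PF_Z.

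The facing strand rose as well, with a higher ratio of means. mdm-miR393g had 661, 1518 and 1490.0 normalized reads in the PF_D libraries, against 67.4, 62.1 and 58.8 in the PF_Z libraries, a ratio of means of 19.5 (log2 change 4.17 ± 0.31, adjusted p = 1.18e-07). Set side by side without a gap, it forms 16 pairs over 19 facing bases with mdm-miR393a_1ss22TC, and its share of the reads of that pair was 7.82% ± 0.995 in PF_D, against 3.65% ± 0.466 in PF_Z. The share was above every PF_Z value in every PF_D library, and a share within a library does not depend on the scaling. Another member, mdm-miR393d_L-1R+1_1ss20CA, also faces the guide strand and was found at 12.7, 13.0 and 29.8 normalized reads in PF_D, with only 1.09 in PF_Z2 and listed at 0 in the other PF_Z libraries (adjusted p = 0.00063). Other sequences with the guide seed did not pass the test, among which ath-miR393a-5p_R+1_2ss21CT22CT averaged 33.4 ± 17.8 in PF_D and 9.47 ± 3.97 in PF_Z (adjusted p = 0.101).

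The miR390 total went the other way, with 5999, 3778 and 5768 normalized reads in PF_D against 9623, 14168 and 11143 in PF_Z (log2 change −1.18 ± 0.23, adjusted p = 0.00954). The libraries of the stages did not overlap, and the call was lost when values were scaled by the valid reads of the libraries (adjusted p = 0.0644). The fall lay in the guide strand mdm-miR390a, which had 4064, 2044 and 3463 normalized reads in PF_D, against 8606, 12474 and 9843 in PF_Z. Its mean in PF_Z was 3.23 times that in PF_D (adjusted p = 0.000544). The facing csi-miR390a-3p_2ss15AG21AC was not called and averaged 1682 ± 221 in PF_D and 979 ± 318 in PF_Z (log2 change 0.82 ± 0.28, adjusted p = 0.111). mdm-miR390a made up 64.5% ± 6.35 of the reads of the pair in PF_D, against 91.5% ± 1.10 in PF_Z.

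Within miR160 a 3p sequence fell. csi-miR160a-3p had 255, 173 and 233 normalized reads in PF_D, against 950.1, 824 and 806 in PF_Z, a mean 3.90 times higher in PF_Z (log2 change −1.98 ± 0.23, adjusted p = 3.91e-05). Among uncalled sequences the pairing rule kept only those with the most pairs, here mdm-miR160a_L+1R-1, a scarce end-shifted form of the guide mdm-miR160a. That form averaged 6.74 ± 4.15 in PF_D and 8.25 ± 0.784 in PF_Z. The share of csi-miR160a-3p in that pair overlapped between the stages, at 97.0% ± 1.87 in PF_D and 99.05% ± 0.0812 in PF_Z. The guide itself also faces csi-miR160a-3p, but that pair was not kept, and the share against the guide was not computed. The abundant guide mdm-miR160a averaged 5671 ± 789 in PF_D and 6828 ± 1422 in PF_Z and was not called (adjusted p = 0.576), nor was the miR160 total (log2 change −0.40 ± 0.20, adjusted p = 0.302), although with library totals set equal that total fell (log2 change −0.80, adjusted p = 0.0129). For miR167 the total was 4179.5 ± 483 in PF_D and 4206 ± 2078 in PF_Z, with PF_Z1 the highest of all 6 libraries, and only the low mdm-MIR167c-p3 rose (83.1 ± 24.9 against 32.3 ± 8.21, adjusted p = 0.0311), a call lost with library totals set equal. Over the 40 tested sequences of the 4 auxin signaling families, 4 rose and 2 fell, beside 29 rises and 7 falls among the 607 known miRNAs tested. The median log2 change of the 40 was −0.11, beside 0.19 over the 607 and −0.16 over all tested sequences.

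The miR169 family, regulators of NF-YA subunits, rose as a group. Its total was 4009.5, 7808 and 8105 normalized reads in PF_D, against 2051, 2474 and 2388 in PF_Z (log2 change 1.46 ± 0.27, adjusted p = 0.00679). PF_D1 was again the lowest PF_D library, but stood above all PF_Z libraries. With library totals set equal the total was no longer called (adjusted p = 0.0599). Of 18 tested miR169 sequences, 9 rose and none fell, beside 29 rises and 7 falls among the 607 known miRNAs tested. The 9 include csi-MIR169i-p3_1 and csi-MIR169i-p3_2, which have the same value in every library and are better read as 1 observation. The median log2 change of the 18 was 1.52, beside 0.19 over the 607.

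The rises covered different strands and seeds of miR169. mdm-miR169k_L+1R-1_1ss2TG had 823, 1549.9 and 1579 normalized reads in PF_D, against 304, 474 and 343 in PF_Z (adjusted p = 0.00112), and ppe-miR169d_3ss10GA20CT21AG, with the same seed, averaged 503 ± 223 and 133 ± 19.6 (adjusted p = 0.00324). The 3 called sequences with the seed shifted by 1 base, ppe-miR169f_R-2, mdm-miR169k_1ss13AG and mdm-miR169a_2ss1CA14CA, had log2 changes of 1.53, 1.51 and 1.17, and their calls were lost with library totals set equal. The arm named csi-MIR169i-p3 is listed as 2 sequences that start 2 bases apart, csi-MIR169i-p3_2 and csi-MIR169i-p3_1, and these have the same value in every library: 590.0, 1001.5 and 1101.5 in PF_D, against 277, 246 and 183 in PF_Z (adjusted p = 0.00148). They may stand for the same reads, so they are better read as 1 observation. Counted once, the miR169 total had a log2 change of 1.41 (adjusted p = 0.00951). A sequence with the seed of csi-MIR169i-p3_2, bdi-miR169h-3p_R+2_1ss18GA, rose to 42.05, 63.8 and 67.1 in PF_D, against 13.6, 17.4 and 13.1 in PF_Z (adjusted p = 0.00601), and bdi-MIR169c-p3_2ss14GC20AT to 15.3, 57.5 and 58.6, against 4.35, 11.98 and 11.5 (adjusted p = 0.044). Both calls were lost with library totals set equal. Not all members were called, since mdm-miR169a averaged 129 ± 26.01 in PF_D and 195 ± 47.5 in PF_Z (adjusted p = 0.259), and the most abundant member, csi-miR169a_L+1R+1_2ss8AG22AG, averaged 1446 ± 590 and 621 ± 260 without passing the test (adjusted p = 0.0605).

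A pair of predicted sequences that resemble or face miR169 sequences rose as well. PC-3p-15391_235 differs from bdi-MIR169c-p3_2ss14GC20AT by C19G, counted from the 5′ end with the named entry's base first. It had 38.2, 164.8 and 107 normalized reads in PF_D, against 15.2, 20.7 and 16.8 in PF_Z, a ratio of means of 5.87 (adjusted p = 0.00422). PC-3p-1636_1596 had 366, 446 and 558 in PF_D, against 134, 142 and 67.2 in PF_Z, 4 times as much (adjusted p = 0.00063), and forms 18 pairs over 19 facing bases with mdm-miR169k_L+1R-1_1ss2TG. Whether they come from one hairpin was not tested.

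In the growth and organ boundary families 7 sequences rose and 4 fell among 86 tested, beside 29 rises and 7 falls among the 607 known miRNAs tested. None of the 5 family totals was called. The clearest case was miR166, which restrains class III HD-ZIP factors of organ polarity. csi-miR166c-5p_L-1R+1_1ss21GA had 1159.6, 1713 and 2080.5 normalized reads in PF_D, against 118, 105 and 111 in PF_Z, a ratio of means of 14.8 (log2 change 3.84 ± 0.26, adjusted p = 7.21e-08). Of the 4 tested miR166 sequences with its seed, only this 1 was called, and the median log2 change of the 4 was −0.088. An overlapping sequence shifted by 2 bases, mdm-MIR166e-p5_1ss18GA, rose too, with 43.3, 41.8 and 61.8 in PF_D, against a single library above 3 in PF_Z (0, 3.27 and 1.05, adjusted p = 5.43e-05). The guide strand mdm-miR166a, which faces csi-miR166c-5p_L-1R+1_1ss21GA over 17 pairs, averaged 125362 ± 1331 in PF_D and 90160.5 ± 28529 in PF_Z and was not called (adjusted p = 0.263). The facing strand was thus 1.30% ± 0.356 of the reads of the pair in PF_D, against 0.130% ± 0.0312 in PF_Z.

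A like pattern was seen in miR396, the regulators of growth-regulating factors. mdm-MIR396g-p3_1ss5AG had 116, 355 and 292 normalized reads in PF_D, against 22.8, 13.1 and 50.4 in PF_Z, a ratio of means of 8.85 (adjusted p = 0.000544). The facing guide mdm-miR396a_1ss20AT averaged 48324 ± 2361 in PF_D and 26974 ± 9774 in PF_Z without passing the test (adjusted p = 0.0711), and the share of the minor strand was 0.532% ± 0.276 in PF_D and 0.136% ± 0.133 in PF_Z, with overlap between the stages. Another 3p sequence of the family, csi-miR396f-3p_1ss20GC, averaged 7117 ± 1631 in PF_D and 13491 ± 1973 in PF_Z (adjusted p = 0.0509). A second called sequence, mdm-MIR396a-p3_2ss1AT18TC, was listed at 0 in all PF_Z libraries and reached 1.27 to 5.64 in PF_D, which is close to the value of 3 reads. The same held for ppe-MIR6275-p3_2ss2CT17GC, at 1.27 to 4.26 in PF_D and listed at 0 in PF_Z (adjusted p = 0.0389).

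The miR171 family, which acts on GRAS factors, changed in both directions. mdm-miR171i_1ss1TC had 327, 411 and 461.5 normalized reads in PF_D, against 90.2, 100.2 and 70.3 in PF_Z, a ratio of means of 4.601 (adjusted p = 9.06e-05). osa-miR171c-5p_1ss1GA had 1293, 1018 and 1026 in PF_D, against 3887, 3335 and 3570.1 in PF_Z, and its PF_Z mean was 3.23 times the PF_D mean (adjusted p = 0.00021). These sequences face each other over 15 pairs, the fewest that the pairing rule allows. mdm-miR171i_1ss1TC was 26.7% ± 5.70 of the pair in PF_D, against 2.37% ± 0.501 in PF_Z. Other partners had more pairs. Among called ones, ppe-miR171e_L-2R+2 (higher) and mdm-miR171j (lower) each face osa-miR171c-5p_1ss1GA over 18. In these pairs, ppe-miR171e_L-2R+2 held 11.6% ± 1.30 in PF_D, against 1.498% ± 0.410 in PF_Z. The share of mdm-miR171j, which fell like its partner, was 8.56% ± 0.678 in PF_D, against 6.96% ± 0.964 in PF_Z. Among uncalled ones, csi-miR171b-5p_1ss12TG faces mdm-miR171i_1ss1TC over 17, and mdm-miR171a faces osa-miR171c-5p_1ss1GA over 19. Beside mdm-miR171a (624 ± 9.23 in PF_D and 602 ± 197 in PF_Z), osa-miR171c-5p_1ss1GA held 63.9% ± 3.29 of the pair in PF_D and 85.9% ± 2.98 in PF_Z. Which of them share a hairpin was not tested. mdm-miR171j also fell, to 133, 88.0 and 94.3 in PF_D, against 320.1, 267 and 222 in PF_Z (adjusted p = 0.00335). ppe-miR171e_L-2R+2 rose (145 ± 8.37 against 55.5 ± 18.8, adjusted p = 0.00825), but lost its call with library totals set equal, without PF_Z2 and without PF_D3. The low ppe-MIR171e-p5 rose (28.7 ± 8.44 against 8.91 ± 3.58, adjusted p = 0.0321), a call also lost with library totals set equal, and mdm-MIR171p-p5_1ss14CT fell (11.1 ± 4.09 against 35.5 ± 5.13, adjusted p = 0.0169). The most abundant member, ppe-miR171a, also listed as gma-MIR171f-p3 and mdm-miR171g, made up 92.8% ± 0.228 of the family in PF_D and 88.9% ± 2.24 in PF_Z, and it averaged 192001 ± 9204 and 128733 ± 39552 (adjusted p = 0.183). In miR164, which limits NAC factors at organ boundaries, the total averaged 8446 ± 2094 in PF_D and 13184 ± 2171 in PF_Z (log2 change −0.66 ± 0.23, adjusted p = 0.13). With library totals set equal the miR164 total was called lower (log2 change −1.06, adjusted p = 0.00925). Of its sequences only the low mdm-MIR164f-p5 was called, with 11.95 ± 4.75 against 36.2 ± 2.17 (adjusted p = 0.0199).

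**Figure D3:**
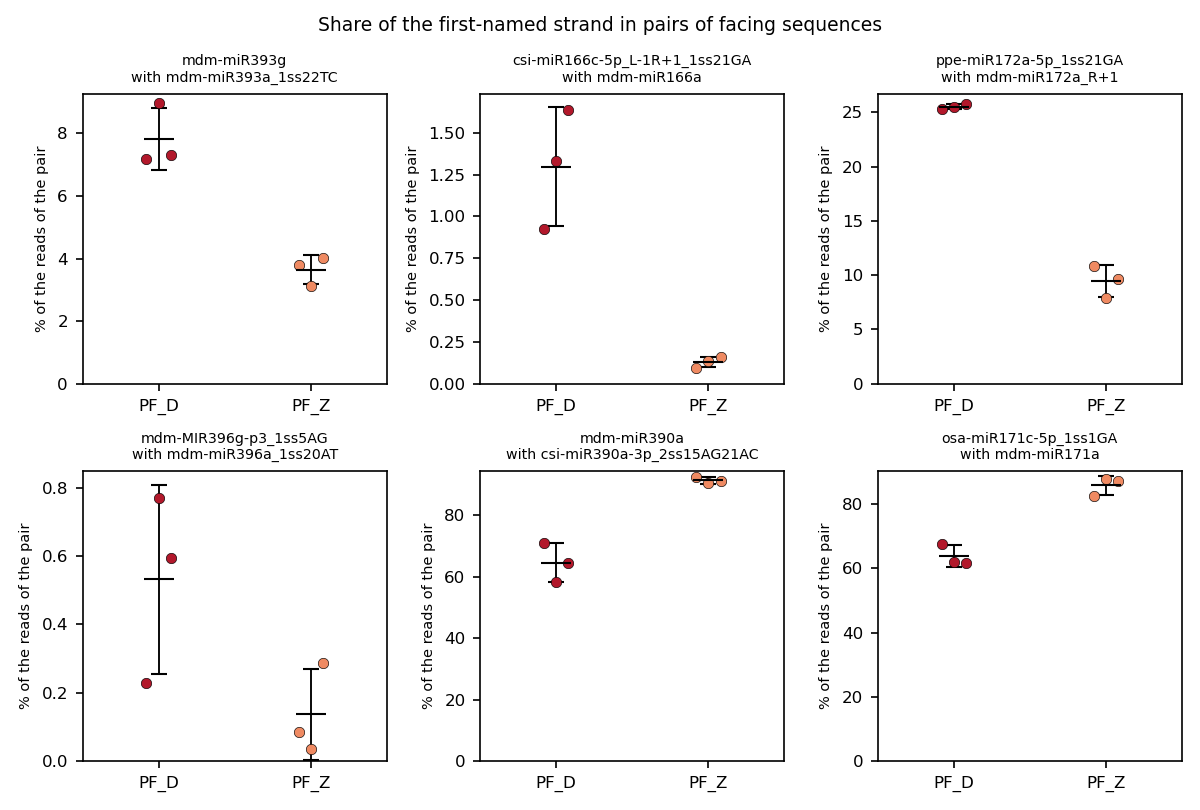
Share of the first-named strand in the reads of 6 pairs of facing sequences (vertical axes, percent, each starting at 0), 1 point per library, with the mean and SD (n = 3) in PF_D on the left and PF_Z on the right. The miR393, miR166 and miR172 minor strands took a larger share in every PF_D library, mdm-miR390a and osa-miR171c-5p_1ss1GA took a smaller one, and the miR396 points overlap.

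Among phase change families the 5p strand of miR172 was the only sequence called, 1 of 48, beside 3.11% of all tested sequences. ppe-miR172a-5p_1ss21GA had 555, 537 and 571 normalized reads in PF_D, against 217, 139 and 102 in PF_Z, a ratio of means of 3.64 (adjusted p = 0.00131). The facing guide mdm-miR172a_R+1, which carries the conserved miR172 seed, averaged 1618 ± 44.0 in PF_D and 1451 ± 437 in PF_Z (adjusted p = 0.719), and the 5p share of the pair was 25.5% ± 0.257 in PF_D, against 9.47% ± 1.505 in PF_Z. For miR156, whose SPL targets time the adult phase, the total averaged 4685 ± 746 in PF_D and 3655 ± 667 in PF_Z (log2 change 0.36 ± 0.23, adjusted p = 0.42). The median log2 change of the 48 sequences was 0.47, beside 0.19 over the 607 known miRNAs tested.

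The families tied to MYB and TCP factors, among them the MYB factors of flavonoid regulation, had no family total called. The miR828 total was 852, 808 and 736 normalized reads in PF_D, against 669.6, 1769.8 and 1415 in PF_Z, with PF_Z1 below all PF_D libraries and the other PF_Z libraries above them (log2 change −0.57 ± 0.36, adjusted p = 0.42). For miR858 it was 2369, 1215 and 1549.7 in PF_D, against 2624, 2691 and 1888 in PF_Z, which overlap in PF_D1 (log2 change −0.53 ± 0.29, adjusted p = 0.371). Both values move with the scaling, from −0.57 to −0.98 for miR828 and from −0.53 to −0.93 for miR858 with library totals set equal, still without a call. Of 51 tested sequences in the miR159, miR319, miR828 and miR858 families, 2 rose and none fell, beside 3.11% of all tested sequences called. mdm-MIR858-p3 was listed at 0 in all PF_Z libraries and had 14.02, 6.77 and 8.53 in PF_D. Against a floor of 3 reads per library (3.23 normalized reads in PF_Z) it was at least 3.03-fold higher in PF_D (adjusted p = 0.00112). csi-miR159a-5p_1ss19AT, a minor strand of miR159, had 4104, 5977 and 6066 in PF_D, against 3163, 2116 and 1997 in PF_Z (adjusted p = 0.00694), a call lost without PF_D2 or PF_D3.

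Beside miR393 and miR169, the totals of miR477, miR530, miR1511, miR5756 and miR7782 rose. miR530 had 2024, 2015 and 2472 normalized reads in PF_D, against 1335, 826 and 570.4 in PF_Z (log2 change 1.33 ± 0.29, adjusted p = 0.0143). miR1511 had 773, 886 and 983 in PF_D, against 463, 345 and 257 in PF_Z (log2 change 1.34 ± 0.27, adjusted p = 0.00954). Their leading sequences mdm-miR530a_2ss18TC20GC and mdm-MIR1511-p5_1ss1TA were called as well (log2 changes 1.35 and 1.39, adjusted p = 0.00607 and 0.00381). Both family calls held under each scaling, though that of miR530 was lost without PF_Z2 or PF_D3 and that of miR1511 without PF_D3. miR477 had 1929, 4809 and 4557 in PF_D, against 1417, 1166 and 1187 in PF_Z (log2 change 1.48 ± 0.33, adjusted p = 0.0143), with its call lost with library totals set equal and without any 1 of PF_Z2, PF_Z3, PF_D2 and PF_D3. Its sequences mdm-miR477b_2ss20GT22CG and ppe-miR477-5p_1ss15GA were both called (log2 changes 1.48 and 1.44). The very abundant miR7782, a single sequence, averaged 164326 ± 7434 in PF_D and 92704 ± 24247 in PF_Z (log2 change 0.86 ± 0.23, adjusted p = 0.0457), which was called under the deposited scaling only, and without 6 of the 9 libraries it was lost. miR5756 stayed low, at 21.7, 9.59 and 26.6 against 7.61, 0 and 2.10 (adjusted p = 0.0469), with its call lost under 2 of the 3 scalings and without any 1 of PF_Z2, PF_Z3, PF_D1 and PF_D3.

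The fall of miR5225 was the largest among family totals with more than a few reads. Its main sequence ppe-miR5225-5p had 326, 182 and 251 normalized reads in PF_D, against 879, 933 and 741 in PF_Z, and its PF_Z mean was 3.36 times the PF_D mean (log2 change −1.78 ± 0.27, adjusted p = 0.00063). The total fell likewise (log2 change −1.76 ± 0.30, adjusted p = 0.00513). miR6280 was listed at 0 in PF_D and at 1.09 to 2.10 in PF_Z, about 1 read, so no fold is given for it, and its call was lost without any 1 of the 9 libraries. When PF_D and PF_Z were fitted without the PF_L libraries, which leaves fewer samples for the spread, only miR393 and miR5225 stayed called (adjusted p = 0.00282 and 0.026).

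**Figure D4:**
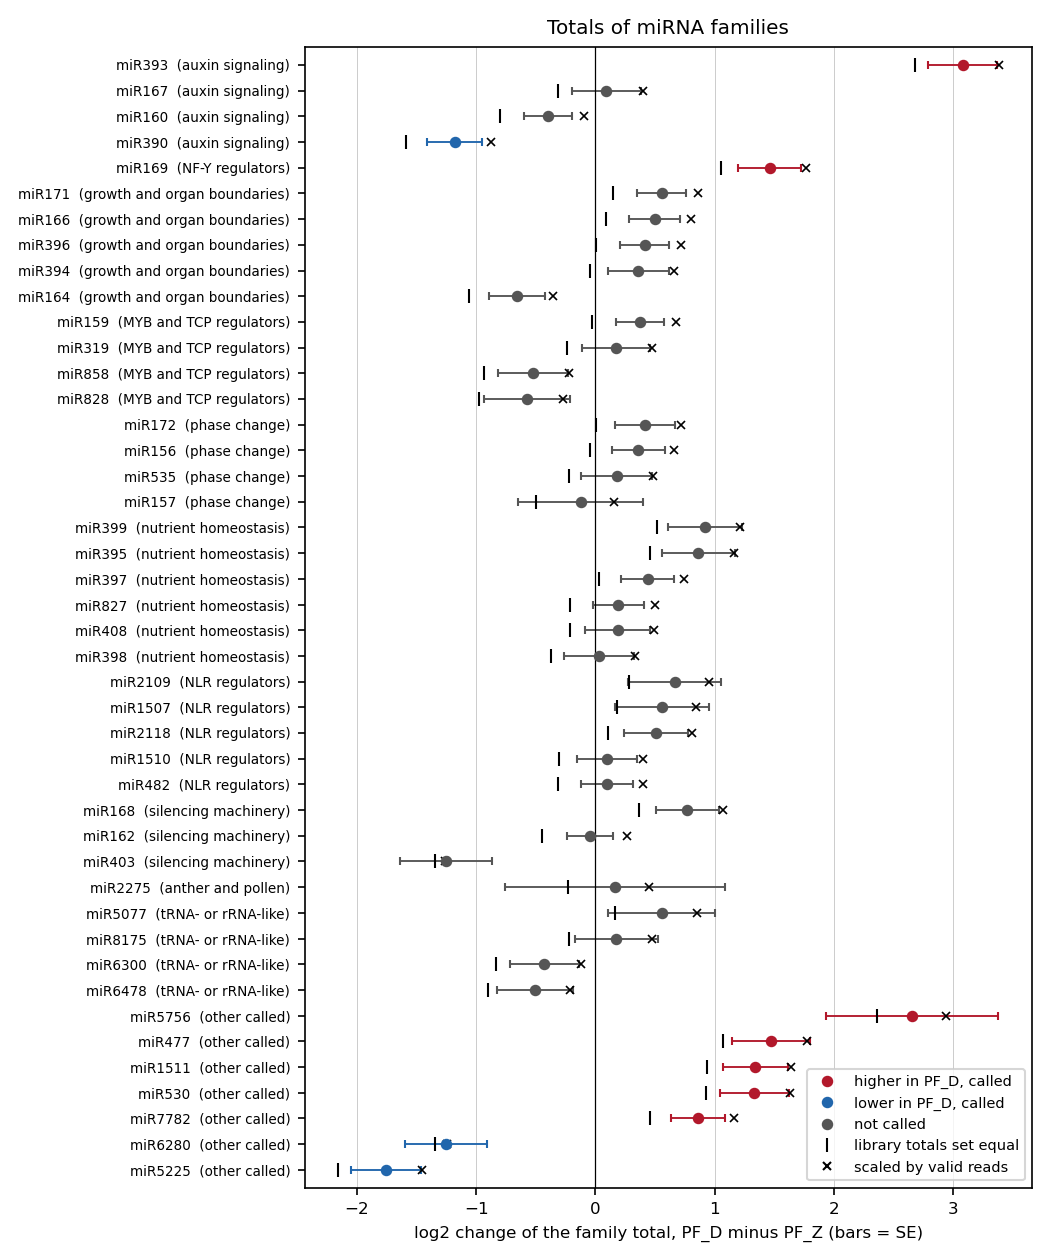
Log2 change of family totals from PF_Z to PF_D (horizontal axis, PF_D minus PF_Z, points with SE bars) for the listed families and the other called ones, with the change under equal library totals as a tick and under valid-read scaling as a cross. miR393 lies at 3.08 and miR5225 at −1.76, and most uncalled families have an equal-total tick and a valid-read cross on either side of their point.

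Predicted sequences added a pair that was absent from the list at the young bud stage. PC-3p-5481_553 was listed at 0 in all PF_L libraries, had 7.61, 15.2 and 14.7 normalized reads in PF_Z and 155, 257 and 277 in PF_D, a ratio of PF_D to PF_Z means of 18.4 (adjusted p = 4.2e-06). PC-5p-46233_97, which forms 16 pairs over 19 facing bases with it, was listed at 0 in PF_L and had 17.8, 36.1 and 73.5 in PF_D, against 1.09, 2.18 and 6.30 in PF_Z (adjusted p = 0.00229). The 3p sequence held 85.5% ± 5.67 of the pair in PF_D and 81.7% ± 10.1 in PF_Z. PC-5p-1384_1876 had 499.5, 788 and 752 in PF_D, against 170.7, 167.7 and 181 in PF_Z, a ratio of 3.93 (adjusted p = 0.00103). Among falls, PC-5p-4208_692 had 56.1, 42.9 and 32.0 in PF_D, against 141, 136 and 141 in PF_Z (adjusted p = 0.00148). PC-3p-17531_211 rose at a low level, to 22.3, 26.5 and 31.4 in PF_D, against 10.9, 4.90 and 9.45 in PF_Z (adjusted p = 0.0341), a call lost with library totals set equal. The other 4 predicted falls were all 24 nt long and scarce. PC-5p-90898_56 averaged 5.33 ± 2.24 in PF_D and 18.9 ± 8.82 in PF_Z (adjusted p = 0.0478), and PC-3p-123386_43, PC-5p-1083450_7 and PC-5p-2365053_4 averaged 1.18, 0.355 and 0.178 in PF_D, about 1 read or less, against 7.49, 5.03 and 6.97 in PF_Z (adjusted p = 0.0279, 0.0455 and 0.0334). No function is known here for any of these.

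The 6 most abundant sequences, mdm-miR159d, ppe-miR171a, bdi-miR7782-3p_R-4_2ss5-A21TG, gra-MIR482-p3_1ss20TG, mdm-miR166a and mdm-miR482b_2ss11CT20TC, together held 73.7% to 76.0% of the listed reads in PF_D and 70.6% to 74.7% in PF_Z. None of them was called as a single sequence. mdm-miR159d, the guide of the GAMYB regulators, was 22.1% ± 1.44 of the listed reads in PF_D and 22.8% ± 0.427 in PF_Z. bdi-miR7782-3p_R-4_2ss5-A21TG was 13.1% ± 0.252 in PF_D and 9.63% ± 1.59 in PF_Z (adjusted p = 0.0705 for its level). gra-MIR482-p3_1ss20TG was 10.05% ± 1.03 in PF_D and 12.7% ± 1.10 in PF_Z, although its level hardly differed (125862 ± 11462 and 121781 ± 28603).

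In the remaining lists the counts were small in number of sequences and are to be read beside the 3.11% of all tested sequences that were called. None of the 61 tested sequences of families that target disease resistance genes of the NLR class was called, and the miR482 total averaged 180109 ± 15166 in PF_D and 171232 ± 40606 in PF_Z. No sequence of 11 was called in the families that act on the silencing machinery, where miR168, the regulator of AGO1, averaged 25315 ± 1791 in PF_D and 15257 ± 4736 in PF_Z (log2 change 0.77 ± 0.27, adjusted p = 0.13). Of 47 sequences in nutrient families, csi-miR399c-5p_2ss5AT19GA alone was called, a low strand of the phosphate-starvation family, with 5.10, 24.8 and 36.2 in PF_D and 0, 4.36 and 0 in PF_Z (adjusted p = 0.0321). Its call was lost without any 1 of PF_Z1, PF_Z3, PF_D2 and PF_D3. The miR395 total, tied to sulfate uptake, averaged 856 ± 285 in PF_D and 458 ± 106 in PF_Z (adjusted p = 0.13), and miR398, the regulator of Cu/Zn superoxide dismutases, averaged 10703 ± 3198 and 10742 ± 4414 (adjusted p = 0.986).

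The other totals of listed families were not called. In the phase change list the miR535 total averaged 17361 ± 3122 in PF_D and 16453 ± 8558 in PF_Z, and the scarce miR157 total averaged 14.9 ± 3.43 and 18.8 ± 13.3. For miR319, which acts on TCP factors, the values were 13029.9 ± 2796 in PF_D and 11894 ± 4312 in PF_Z (log2 change 0.17 ± 0.29), and for miR394 they were 12786 ± 1301 and 10378 ± 3595 (0.36 ± 0.26). The totals of miR159, miR166, miR171 and miR396 had log2 changes of 0.37, 0.50, 0.56 and 0.41, with adjusted p from 0.145 to 0.324 in limma. Among copper-related families miR397, tied to laccases, averaged 1951 ± 299 in PF_D and 1447 ± 296 in PF_Z, and miR408 averaged 2672 ± 951 and 2278 ± 402. miR399 averaged 162.05 ± 45.9 in PF_D and 83.7 ± 13.6 in PF_Z (log2 change 0.92 ± 0.31, adjusted p = 0.129), without overlap, and miR827 averaged 1406 ± 63.8 and 1234 ± 147. miR162, the regulator of DCL1, averaged 4190.2 ± 352 in PF_D and 4309.9 ± 323 in PF_Z, and miR403 was listed at 0 in PF_D and at about 1 read in PF_Z. In the NLR list miR1510 averaged 341 ± 16.1 in PF_D and 326 ± 82.5 in PF_Z, miR2118 averaged 145 ± 9.20 and 103 ± 19.6, and miR1507 and miR2109 stayed below 20 on average. With library totals set equal, the changes of miR156, miR159, miR167, miR319, miR394, miR398, miR408, miR482, miR535, miR827 and miR1510 took the opposite sign, at −0.03 to −0.37 on the log2 scale, still without a call. The median log2 changes over sequences were 0.12 for growth and organ boundaries, 0.19 for MYB and TCP regulators, 0.28 for nutrient families, 0.25 for the silencing machinery, 0.29 for NLR regulators, 0.27 for the 8 anther and pollen sequences and −0.29 for tRNA- or rRNA-like ones, beside 0.19 over the 607 known miRNAs tested.

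The length, first base and GC content of the called sequences were set beside those of the tested sequences. Of the 35 rises, 27 were 21 nt long, and none was 23 to 25 nt long, a length class that holds 741 of the 1511 tested sequences. Of the 12 falls, 5 were 23 to 25 nt long (41.7%), beside 49.0% of all tested sequences. Many sequences of that class are scarce, and among the 501 tested sequences with a mean of at least 5 it holds 189. G was the first base of 12 of the 35 rises, a share of 34.3%, against 10.5% of the tested sequences and 15.2% of those with a mean of at least 5. A was the first base of 7 of the 12 falls, a share of 58.3%, against 45.3% and 35.5% in the same sets. The median GC content was 50% for the rises, 48.8% for the falls, 42.9% for all tested sequences and 47.6% for those with a mean of at least 5. These shares are descriptions without a test, because sequences of 1 family or hairpin are not independent.

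To place the late step in the whole course, the change from PF_Z to PF_D was set against the change from PF_L to PF_Z. The PF_Z libraries enter both steps with opposite sign, so a PF_Z library that is off moves both. The late step differed from the early one for 4 of the 1511 sequences (0.265%), 3 with a higher late change (0.199%) and 1 with a lower one (0.0662%), and 133 passed at an unadjusted p under 0.05. mdm-miR393g averaged 25.7 ± 0.753, 62.7 ± 4.35 and 1223 ± 487 normalized reads in PF_L, PF_Z and PF_D. Its late log2 change was 4.17 and its early one 1.26, a difference of 2.91 ± 0.53 (adjusted p = 0.0342). ppe-miR5225-5p averaged 597 ± 192, 851 ± 99.004 and 253 ± 72.3, with a late change of −1.78 and an early one of 0.55 (difference −2.33 ± 0.47, adjusted p = 0.0493). The other 2 were low in abundance, mdm-MIR166e-p5_1ss18GA (difference 4.96, adjusted p = 0.0363) and mdm-MIR858-p3 (difference 5.20, adjusted p = 0.0342). With library totals set equal the calls of mdm-miR393g, mdm-MIR166e-p5_1ss18GA and mdm-MIR858-p3 were lost (adjusted p = 0.0792, 0.0792 and 0.0504), and that of ppe-miR5225-5p was lost with the median of ratios (0.0603) and with valid reads (0.0937). The test also depended on single libraries: no sequence was called without PF_L2, PF_L3, PF_Z3, PF_D2 or PF_D3, 1 was called without PF_Z2, and 9 were called without PF_D1.

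Other sequences had no called difference between steps, whether they moved in the same direction at both steps or not. csi-miR166c-5p_L-1R+1_1ss21GA averaged 28.9 ± 2.70, 111 ± 6.97 and 1651 ± 464 in PF_L, PF_Z and PF_D, with log2 changes of 1.91 early and 3.84 late (adjusted p = 0.167 for the difference). mdm-miR393a_1ss22TC averaged 702 ± 104, 1680 ± 263 and 14279 ± 5248, with 1.26 early and 3.02 late (adjusted p = 0.214). mdm-miR390a fell over the course, at 20189 ± 1641, 10308 ± 1976 and 3190.0 ± 1037. csi-miR159a-5p_1ss19AT was at 3135 ± 137, 2425 ± 642 and 5382 ± 1108 (early −0.40, late 1.16, adjusted p = 0.214). csi-miR160a-3p was at 1181 ± 124, 860.2 ± 78.4 and 220.3 ± 42.6 (early −0.45, late −1.98, adjusted p = 0.214). PC-3p-11499_298, a predicted sequence, had changes of −0.84 early and 1.14 late (adjusted p = 0.214). Those with the opposite order were csi-MIR156f-p5_1ss19AT (1.90 early and 0.24 late, adjusted p = 0.248), mdm-miR828a (1.23 and −0.53, adjusted p = 0.421) and ath-MIR858b-p5, also listed as mdm-miR858_2ss20GT21AG (0.76 and −0.57, adjusted p = 0.427), and none of these differences was called. Of the 1511 sequences, 17 were called between PF_Z and PF_L (1.13%), 8 higher in PF_Z (0.529%) and 9 lower (0.596%). Of the 35 late rises, 27 also had a positive early change, 5 of them called, and 4 of the 12 late falls had a positive early change, beside 670 of the 1511 tested sequences and 256 of the 501 with a mean of at least 5.

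**Figure D5:**
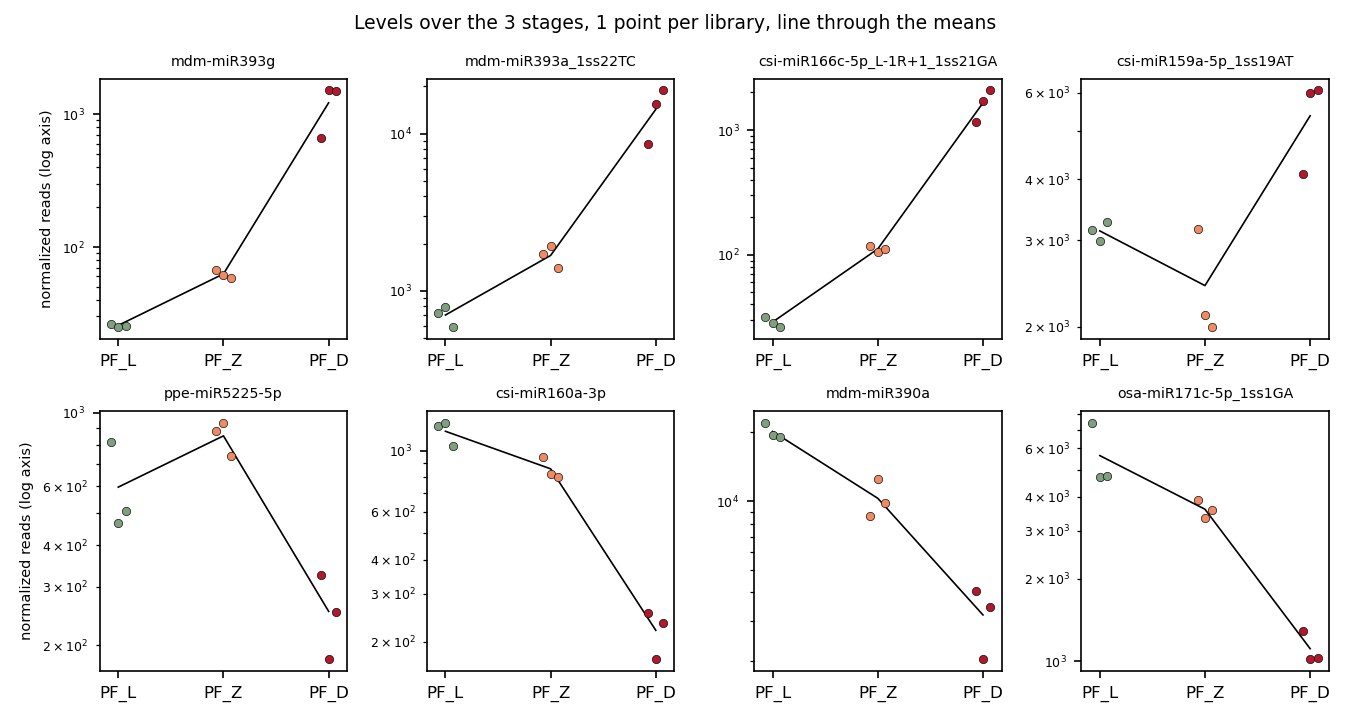
Normalized reads (log axes that differ between panels) of 8 sequences at PF_L, PF_Z and PF_D, 1 point per library with a line through the means. mdm-miR393g and ppe-miR5225-5p, the 2 abundant sequences whose late step differed from the early one under the deposited scaling, stand in the left column, with the first reaching 661 to 1518 in PF_D and the second 182 to 326.

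Trimming at the ends of the miRNAs was compared through ratios within a library. In 47 pairs of sequences that differ by 1 or 2 end bases, 31 at the 3′ end and 16 at the 5′ end, no ratio of the longer to the shorter form was called between PF_D and PF_Z (limma, smallest adjusted p = 0.184), and 7 passed at an unadjusted p under 0.05. The lowest p was that of mdm-miR394a and its form without the last base, where the longer form was 99.7% ± 0.0882 of the pair in PF_D and 99.5% ± 0.162 in PF_Z (log2 change of the ratio 0.92 ± 0.26). The ratio was lower in 30 of the 47 pairs and higher in 17, with a median log2 change of −0.12, and this tally repeats some pairs of gma-miR6300 forms that have the same values in every library.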

How the data were processed

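Small RNAs of petals were sequenced in 9 libraries, 3 per stage, as single-end Illumina reads. Per the labels and the paper's methods, the authors removed adapters, junk, repeats and reads of other RNA classes such as tRNA and rRNA with ACGT101-miR, kept 18 to 25 nt, matched sequences to miRBase 22.0 and the Fragaria vesca genome, and predicted further miRNAs from hairpins. The deposited signal is a normalized read count for which the formula is not given in the sources used here. Matching to another species' genome can leave out sequences it lacks. The labels name Trizol for extraction and the paper a CTAB method.

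Repeated lines were dropped and each sequence was counted once. Families were summed by the number in the name. A read was taken to be worth the most common value above 0 of its library. All 9 libraries entered limma 3.58.1 (R 4.3.3, mean-dependent prior, two-sided) on log2(value + 1), and p-values were adjusted after Benjamini and Hochberg over all features tested, with a threshold of 0.05. With 3 libraries a stage, the p-values weigh each change against the spread within the stages over all 9 libraries, moderated by that prior. They speak only to these libraries. The code was tested on simulated data. Alternatives were other scalings (library totals set equal, median of ratios, valid reads), filters, pseudocounts, a replicate block, and omission of each library. Facing strands were found by ungapped pairing with at least 15 pairs. The best fit within a shift of 2 bases from 2-base 3′ overhangs was taken, so the overhangs of a pair can differ from 2 bases. Of uncalled partners only those with the most pairs were kept. Shares used the most abundant partner kept. Named sequences were the 12 largest rises and falls (6 falls qualified) among called ones without overlap whose higher stage averaged 50 or more, the 6 most abundant, the total and leading sequence of listed families, called families and called end-isoform ratios, and the 5 lowest p in each direction for the late against the early step. Further called sequences, and some uncalled partners and family members, were picked with their values known. The comparison and the family lists were chosen with earlier results of these data known. Python 3.11.15, pandas 2.3.3, numpy 2.4.6, scipy 1.17.1 and matplotlib 3.10.9 served for the rest.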

Additional observations from a re-analysis of the deposited data

How the results depend on the processing

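In place of 47 sequences, 78 were called after scaling by valid reads (64 higher) and 81 with a mean of at least 5 as the filter (51 higher and 30 lower). The number of lower sequences was 30 with library totals set equal and 7 when PF_D and PF_Z were fitted alone. For family totals, PF_D and PF_Z alone gave 2 calls (1 higher and 1 lower), and equal library totals gave 3 higher. For end-isoform ratios, a minimum mean of 50 for both forms, chosen after seeing the data, gave 1 call, lower in PF_D. For the late against the early step, equal library totals gave 1 call (0 higher), pseudocounts of 0.5 and 5 gave 2 each, and no lower call remained (0) with the median of ratios, valid reads, no filter or either of these pseudocounts. Omitting each library in turn gave 29 to 66 called sequences (19 to 51 higher and 7 to 17 lower), 4 to 16 families (2 to 14 higher and 2 to 4 lower), 0 to 1 end-isoform ratios (0 to 1 lower) and 0 to 9 late-against-early calls (0 to 8 higher and 0 to 2 lower). No called result changed sign in these alternatives.

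The replicate numbers gave no sign of pairing: the deviations of same-numbered PF_Z and PF_D libraries had correlations of 0.16, −0.05 and 0.01. Those of differently numbered PF_Z and PF_D libraries ran from −0.20 to 0.23. So few libraries cannot settle whether they were paired. With a replicate block, 51 sequences were called (40 higher and 11 lower), 9 families (7 and 2), 4 late-against-early differences and 0 end-isoform ratios. Count-based tests were not run, because whole reads could not be recovered from every library: 68.7% to 72.0% of the values above 0 were whole multiples of 1 read, within 0.01 of a read. At the depth of these libraries, 799 of the 1511 tested sequences had at most 3 reads on average at both stages, where a change is hard to detect.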
